A study of Mus musculus with 14 samples.

Results

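The cytosolic translation elongation factors and the kinase of eEF2 were followed through RNA and ribosome footprints of mouse cortex with and without Fmr1. They were chosen by name: a gene was a member when its symbol in the deposited count table matched Eef1a1, Eef1a2, Eef1b2, Eef1d, Eef1g, Eef1e1, Eef2 or Eef2k exactly. All 8 were found among 23412 genes, of which 20563 had values in footprints and RNA. The rule itself uses no measured value, though the genes were proposed with earlier results of these data known.

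All mice carried a floxed Rpl22 allele on both chromosomes and a Cre transgene, written Rpl22flox/flox;CamKCre+. The controls had no further change, and the knock-out (KO) mice also lacked Fmr1, written Fmr1X-Y. The labels name a CAMKIIa-Ribotag mouse. In such an animal the CamKIIa promoter restricts Cre, and so the tagged ribosomal protein, to excitatory forebrain neurons. The protocols describe total RNA and monosomes from brain lysates and name no immunoprecipitation of the tag, and the tissue label is cortex. Age and strain are not given in the sources used here. RNA was sequenced from 4 controls (mice 1, 3, 6 and 8) and 4 KO animals (mice 2, 4, 5 and 7). Footprints, the mRNA fragments that ribosomes protect from nuclease, were sequenced from 3 controls (mice 1, 3 and 9) and 3 KO animals (mice 2, 4 and 10).

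During elongation, eEF1A in its GTP form brings each aminoacyl-tRNA to the ribosome, and the eEF1B subunits exchange the spent GDP for GTP. eEF2 then moves the ribosome to the next codon, and eEF2 kinase, which calcium and calmodulin activate, phosphorylates eEF2 and so slows elongation. Neurons replace the broadly expressed eEF1A1 with eEF1A2 as they mature, and several elongation factor mRNAs belong to the TOP class, whose translation is regulated together with that of ribosomal protein mRNAs. FMRP, the product of Fmr1, is an RNA-binding protein found on translating ribosomes in brain.

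RefSeq promoter sequences were matched for 6 of the 8 members. Those of Eef1a1 and Eef1e1, the members with lower RNA in KO mice below, are shown beside those of Eef1a2, the neuronal paralog, and Eef2. Each runs from 120 bases before the annotated start to 30 after it (RefSeq, assembly GRCm38.p6), 5′ to 3′ on the gene's strand. Capitals mark matches on either strand to the TATA core TATAA, the GC box GGGCGG, the CCAAT box and the E-box CACGTG.
Eef1a1, chr9:78481695-78481844, minus strand: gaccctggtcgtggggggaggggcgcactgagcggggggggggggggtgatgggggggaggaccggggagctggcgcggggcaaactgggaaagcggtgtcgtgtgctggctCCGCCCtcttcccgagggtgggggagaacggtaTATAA
Eef1e1, chr13:38658999-38659148, minus strand: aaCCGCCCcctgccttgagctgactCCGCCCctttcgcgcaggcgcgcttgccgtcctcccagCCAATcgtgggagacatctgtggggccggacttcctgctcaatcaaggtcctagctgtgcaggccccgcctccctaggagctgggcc
Eef1a2, chr2:181156986-181157135, minus strand: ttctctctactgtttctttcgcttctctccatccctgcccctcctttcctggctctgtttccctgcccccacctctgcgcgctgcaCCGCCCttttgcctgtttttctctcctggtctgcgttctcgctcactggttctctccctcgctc
Eef2, chr10:81176511-81176660, plus strand: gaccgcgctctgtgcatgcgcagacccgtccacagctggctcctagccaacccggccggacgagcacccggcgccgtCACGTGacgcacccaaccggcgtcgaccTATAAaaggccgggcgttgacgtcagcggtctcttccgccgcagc

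Of these 4 windows, those of Eef1a1 and Eef2 held TATAA, in Eef1a1 downstream of the annotated start, as did 13.4% of 32851 mouse windows of the same length. The GC box was found once in Eef1a1 and Eef1a2 and 2 times in Eef1e1, against 29.1% of windows with at least 1. CCAAT was found in Eef1e1 (24.0% of windows) and CACGTG in Eef2 (4.47%). Of the members whose windows are not printed, Eef2k held CACGTG at 1 and the GC box at 2 of its 3 annotated starts, and Eef1b2 held none of the 4 motifs. GC content was 71.3% for Eef1a1, 67.3% for Eef1e1, 58.0% for Eef1a2 and 69.3% for Eef2, against a median of 54.7% over all windows. The GC box was thus the 1 searched motif that Eef1a1 and Eef1e1 shared, and Eef1a2 held it too. A match describes letters and is no evidence of binding.

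Levels are given as CPM, a gene's counts divided by its library's size after TMM adjustment. Total counts were 8847547 to 11371851 per RNA library and 4124065 to 6033030 per footprint library. Fmr1 checked the labels: its RNA in KO mice was 26.1% of control and its footprints 6.56%, with no overlap between genotypes. Rpl22, which carries the floxed allele in all mice, was at 84.0% of control in KO RNA (edgeR adjusted p = 0.0355), a call that was lost in the exon columns described below (0.531), without control mouse 3 (0.0679) or 6 (0.119), without KO mouse 2 (0.132), 4 (0.128) or 7 (0.0922), with KO mice 2, 4 and 7 summed (0.333) and with mice 5 to 8 only (0.356). Some libraries were unusually alike. A chi-square statistic per degree of freedom, which sampling alone brings to about 1, was 1.18 to 1.32 between the RNA of KO mice 2, 4 and 7. It was 5.64 to 6.02 between each of these and KO mouse 5, 1.99 between control mice 1 and 3, and 4.03 to 11.8 between the other controls. Footprint libraries gave 1.20 to 1.46 within a genotype and 12.6 to 15.5 between genotypes. In RNA the values between genotypes, 5.66 to 9.75, lay within the range of the controls among themselves, where mouse 8 against mice 1 and 3 gave 10.6 and 11.8. The RNA calls are therefore also given with KO mice 2, 4 and 7 summed to 1 library. The intervals and p-values of all footprint results, with 3 libraries a genotype, rest on a spread between libraries close to sampling noise, and summing those libraries in the same way would leave 1 a genotype and no test. Markers of cortical excitatory and inhibitory neurons, oligodendrocytes, astrocytes, microglia and endothelium were all detected in both assays.

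**Figure D1:**
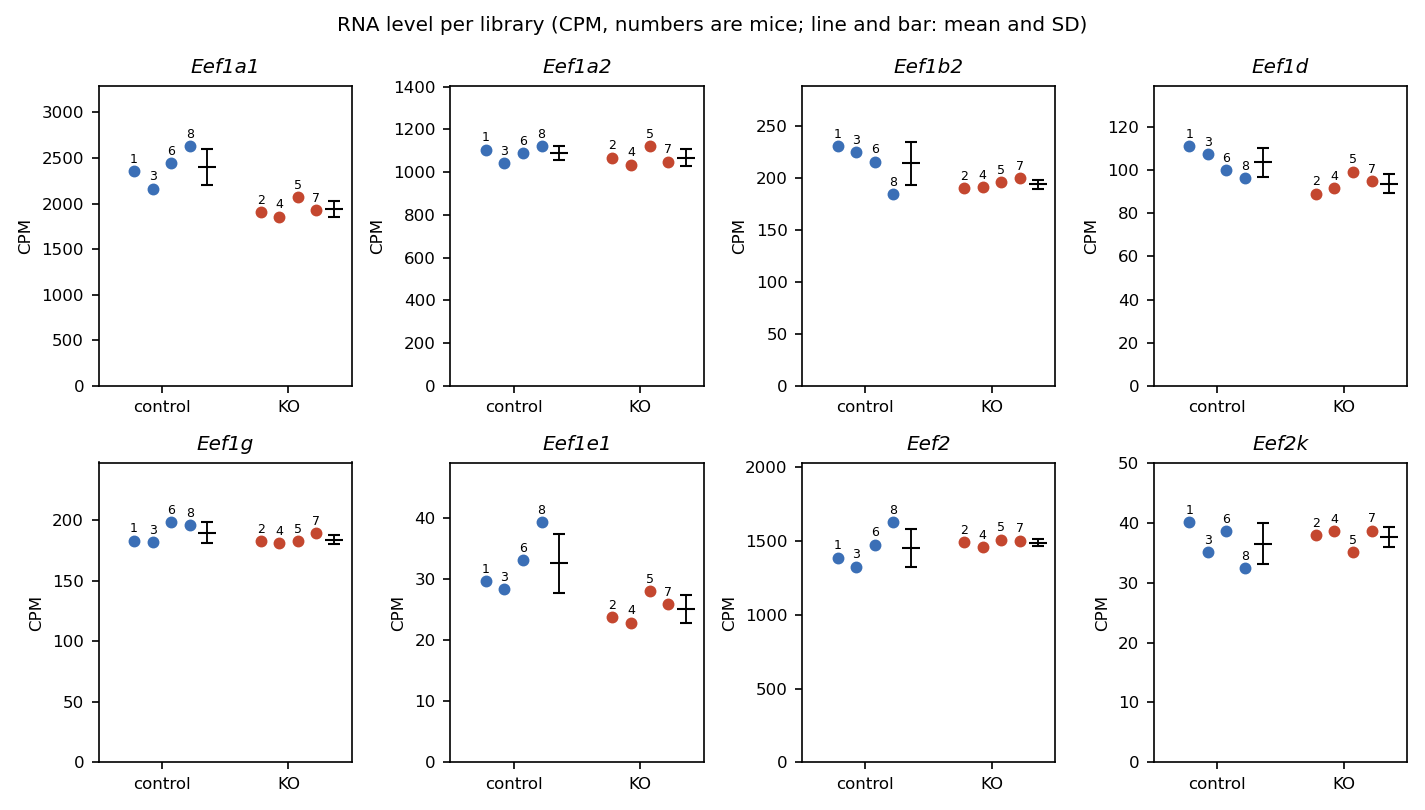
RNA level of the 8 members in each library, as CPM on axes from 0, with mouse numbers and, in black, the mean and SD (n = 4 per genotype). Control and KO libraries are separated for Eef1a1 and Eef1e1 and overlap for the other 6.

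In RNA, 2 of the 8 members were lower in KO cortex and none was higher. They were Eef1a1, at 80.9% of the control level, and Eef1e1, at 77.2%. The median log2 fold change of the members was -0.09, against -0.0013 for all 13507 genes tested, and 6 of the 8 had a negative value. All 8 passed the filter on low counts in every comparison. Calls are genes with an adjusted p under 0.05 in edgeR's quasi-likelihood test, which took 7.41% of all genes tested, 3.88% lower and 3.53% higher in KO mice.

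In footprints, 1 of the 8 members, Eef1a1, was called, and it was lower in KO mice at 89.2% of control. The members' median log2 fold change was 0.03, against 0.0055 for all genes. The footprint comparison called 25.5% of 12158 genes, 13.6% lower and 11.9% higher, so a single call among 8 is below the share in all genes. Footprint replicates differed little, with a common coefficient of biological variation of 0.0211 against 0.0770 in RNA, and small changes could pass the test there. Eef1a1 was the 1 member whose footprint values did not overlap between genotypes. The share of all genes without overlap was not counted in either assay. A member's separation therefore cannot be weighed against all genes.

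**Figure D2:**
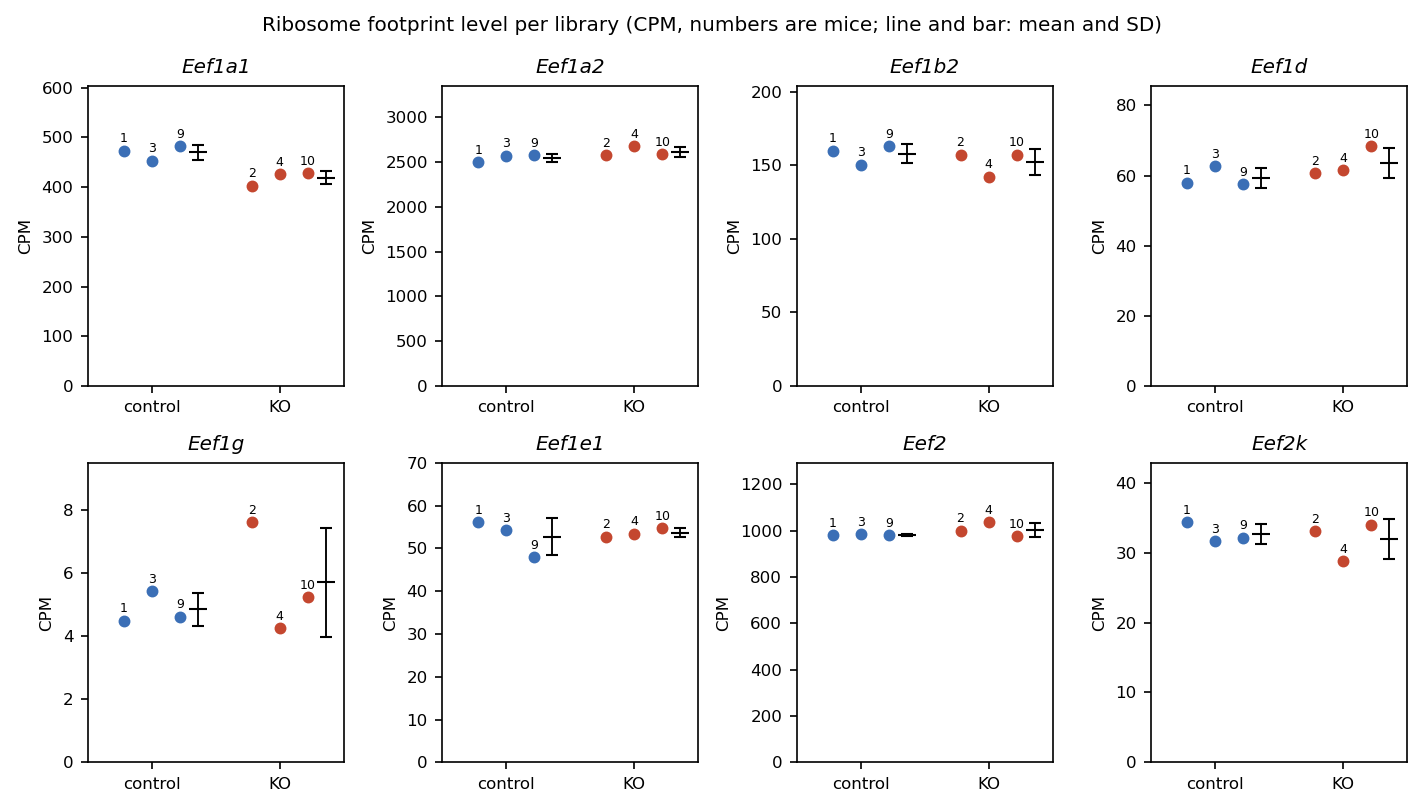
Footprint level of the 8 members in each library (CPM, TMM-scaled, axes from 0), with mouse numbers and, in black, the mean and SD (n = 3 per genotype). The KO values of Eef1a1, 403 to 427 CPM, all lie below the control values, 453 to 483 CPM; those of the other members overlap.

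Eef1a1 encodes the eEF1A of most cell types. Its RNA was at 2353, 2163, 2447 and 2632 CPM in control mice 1, 3, 6 and 8, and at 1907, 1857, 2068 and 1927 CPM in KO mice 2, 4, 5 and 7. The highest KO value, in mouse 5, was below the lowest control value, in mouse 3. The means were 2399 ± 195 (SD, n = 4) and 1939.6 ± 90.5 (SD, n = 4) CPM. RNA fell by 0.31 on the log2 scale (95% interval -0.45 to -0.17, edgeR adjusted p = 0.0132).

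Eef1a1 footprints were at 474, 453 and 483 CPM in control mice 1, 3 and 9 and at 403, 426 and 427 CPM in KO mice 2, 4 and 10. They fell by 0.16 (95% interval -0.23 to -0.10, edgeR adjusted p = 2.09e-05). With library sizes left unscaled by TMM the log2 fold change was smaller, at -0.10, and still called (edgeR adjusted p = 0.00773). In RNA, mice 1 and 2, mice 3 and 4, and mice 5 to 8 form sets whose library titles share a prefix. In footprints the sets are mice 1 and 2, 3 and 4, and 9 and 10. Within each set every KO value was below every control value. This follows from the separation over all libraries and is no separate evidence. In the exon columns, a second set of RNA counts that the authors deposited, Eef1a1 was also lower, by a log2 fold change of -0.28 (edgeR adjusted p = 0.0244).

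The RNA call of Eef1a1 was lost without KO mouse 2 (edgeR adjusted p = 0.0593), 4 (0.0607) or 7 (0.0542), at log2 fold changes of -0.30 to -0.29, and with these 3 summed to 1 library (log2 fold change -0.27, adjusted p = 0.217). Its footprint call was lost in a single fit over the 14 libraries of both assays (log2 fold change -0.17, adjusted p = 0.0716).

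Eef1a1 has processed pseudogenes in the mouse genome and a close paralog in Eef1a2. How reads with several equally good positions were counted is not given in the sources used here, so the split of reads between these copies is uncertain. In bulk cortex, fewer cells of a type and less RNA per cell cannot be told apart. Summed RNA of 9 oligodendrocyte markers was 5177 to 5696 CPM in controls and 4569 to 4907 CPM in KO mice, without overlap. Summed RNA of 10 excitatory neuron markers was 2752 to 3020 CPM in controls and 3398 to 3685 CPM in KO mice. Of these 10 markers 7 had higher and 3 lower values in KO RNA, and the called genes were Camk2a (log2 fold change 0.75 ± 0.099, SE, edgeR adjusted p = 0.00076) and Slc17a7 (0.20 ± 0.055, SE, adjusted p = 0.0416). Camk2a was lower in footprints (-0.14 ± 0.019, SE, adjusted p = 1.71e-09) and in footprints relative to RNA (-0.90 ± 0.12, SE, adjusted p = 6.09e-05). None of these markers was at 0 in all libraries, and their part in the Eef1a1 result was not tested.

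Eef1a2, the neuronal and muscle eEF1A, gave a different picture. Its RNA was at 1105, 1044, 1089 and 1123 CPM in control mice 1, 3, 6 and 8 and at 1068, 1035, 1122 and 1049.8 CPM in KO mice 2, 4, 5 and 7. These values overlap almost completely, and the log2 fold change of -0.03 had a 95% interval of -0.14 to 0.08 (edgeR adjusted p = 0.789). Its footprints were at 2499, 2572 and 2579 CPM in control mice 1, 3 and 9 and at 2576, 2681 and 2591 CPM in KO mice 2, 4 and 10. The footprint difference was 0.04 (95% interval -0.0028 to 0.08, edgeR adjusted p = 0.178). With library sizes left unscaled by TMM it was 0.10 and called (adjusted p = 3.80e-05). That scaling moved the median of all genes to 0.06.

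**Figure D3:**
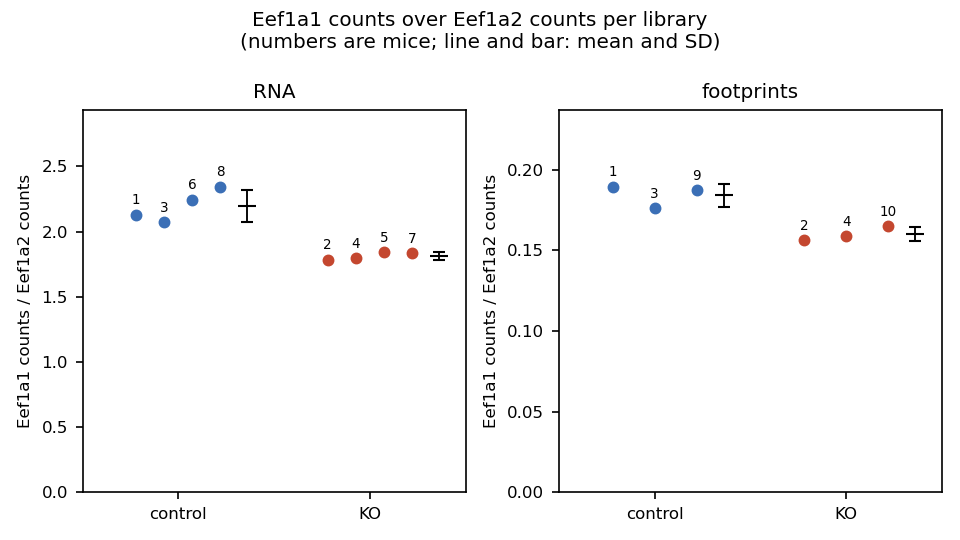
Eef1a1 counts divided by Eef1a2 counts in each library of RNA (left) and footprints (right), with mouse numbers and, in black, the mean and SD (n = 4 per genotype in RNA, n = 3 in footprints). Every KO ratio lies below every control ratio in both panels, and the ratios are above 1 in RNA and below 1 in footprints.

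The ratio of Eef1a1 to Eef1a2 counts needs no scaling between libraries. In RNA it was 2.13, 2.07, 2.25 and 2.34 in control mice 1, 3, 6 and 8 and 1.79, 1.79, 1.84 and 1.84 in KO mice 2, 4, 5 and 7. The log2 difference was -0.28 (p = 0.0286 in an exact two-sided permutation test, the smallest value that 4 against 4 allows; 0.114 after adjustment over 4 ratio tests). In footprints it was 0.189, 0.176 and 0.187 in control mice 1, 3 and 9 and 0.157, 0.159 and 0.165 in KO mice 2, 4 and 10. The log2 difference there was -0.20 (p = 0.1 in an exact two-sided permutation test, the smallest value that 3 against 3 allows; 0.2 adjusted). The genotypes did not overlap in either assay, and neither adjusted p passed 0.05.

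Eef1b2, Eef1d and Eef1g encode the beta, delta and gamma subunits of eEF1B. The first 2 are nucleotide exchange factors and gamma is structural. Eef1b2 RNA was at 231, 225, 215 and 184 CPM in control mice 1, 3, 6 and 8 and at 189.9, 191, 195 and 199 CPM in KO mice 2, 4, 5 and 7. Only control mouse 8 lay below the KO values, and the other controls lay above all of them. The log2 fold change was -0.14 (95% interval -0.28 to 0.00090, edgeR adjusted p = 0.217), and without mouse 8 it was -0.20 and called (adjusted p = 0.0158). Its footprints were at 159.9, 150.4 and 163 CPM in control mice 1, 3 and 9 and at 157, 142 and 157 CPM in KO mice 2, 4 and 10, and overlapped (log2 fold change -0.05, 95% interval -0.15 to 0.05).

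Eef1d RNA was at 111, 107, 99.9 and 96.3 CPM in control mice 1, 3, 6 and 8 and at 89.1, 91.5, 99.3 and 94.8 CPM in KO mice 2, 4, 5 and 7. Only KO mouse 5 reached the range of the controls. The log2 fold change was -0.15 (95% interval -0.28 to -0.015, edgeR adjusted p = 0.162) and was not called. Its footprints, at 58.0, 62.7 and 57.5 CPM in controls and 60.6, 61.5 and 68.4 CPM in KO mice, had a log2 fold change of 0.10 with a 95% interval of -0.05 to 0.25.

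The RNA values were also taken within each set of mice. Among mice 1 to 4, Eef1b2 RNA had a log2 fold change of -0.25 (edgeR adjusted p = 0.000153) and Eef1d one of -0.27 (adjusted p = 0.0011). Among mice 5 to 8 the values were -0.02 (adjusted p = 0.965) and -0.01 (adjusted p = 0.971). For Eef1a1 they were -0.26 (adjusted p = 2.29e-06) and -0.35 (adjusted p = 0.121), and for Eef1e1 -0.31 (adjusted p = 0.0200) and -0.43 (adjusted p = 0.155). The fit of mice 1 to 4 called 3273 of 13591 genes, and its p-values rest on libraries that were unusually alike. The chi-square per degree of freedom was 1.99 between control mice 1 and 3 and 1.32 between KO mice 2 and 4. It was 4.03 between control mice 6 and 8 and 5.64 between KO mice 5 and 7. The difference between the mouse sets was not tested for any member. The exact region counted and its strand setting are not given in the sources used here, and Eef1b2 and Eef1d share their loci with other annotated genes, a small nucleolar RNA and Tigd5.

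Eef1g RNA was at 183, 182, 198 and 196 CPM in control mice 1, 3, 6 and 8 and at 183, 181, 182 and 189 CPM in KO mice 2, 4, 5 and 7. The ranges overlapped, and the log2 fold change was -0.05 (95% interval -0.16 to 0.06, edgeR adjusted p = 0.638). Its footprints numbered 19, 32 and 26 counts in control mice 1, 3 and 9 and 32, 19 and 25 counts in KO mice 2, 4 and 10, against 1568 to 2074 counts in RNA. The log2 fold change of these footprints was 0.21 with a wide 95% interval of -0.30 to 0.72 (edgeR adjusted p = 0.599).

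Eef1e1 carries the name of an elongation factor subunit and encodes AIMP3, a scaffold protein of the multi-tRNA-synthetase complex. Its RNA was at 29.6, 28.3, 33.0 and 39.2 CPM in control mice 1, 3, 6 and 8 and at 23.7, 22.8, 28.0 and 25.8 CPM in KO mice 2, 4, 5 and 7. The genotypes were separated, narrowly, by KO mouse 5 at 28.0 and control mouse 3 at 28.3 CPM, and mouse 8 stood highest. RNA fell by 0.38 on the log2 scale (95% interval -0.60 to -0.16, edgeR adjusted p = 0.0405). Given that separation, the KO values were necessarily below the controls within each set of libraries whose titles share a prefix. This is no separate evidence.

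The Eef1e1 footprints, at 56.1, 54.2 and 48.0 CPM in control mice 1, 3 and 9 and 52.8, 53.4 and 54.8 CPM in KO mice 2, 4 and 10, did not follow the RNA call. Their log2 fold change was 0.03 with a 95% interval of -0.13 to 0.19. The RNA call was lost in the exon columns (log2 fold change -0.20, edgeR adjusted p = 0.113) and without control mouse 1 (0.0530), 6 (0.0990) or 8 (0.0557) or KO mouse 2 (0.121), 4 (0.134) or 7 (0.0893). With those single libraries left out the log2 fold change was -0.42 to -0.27. Summing KO mice 2, 4 and 7 to 1 library removed the call too (log2 fold change -0.34, adjusted p = 0.286). The columns without a suffix held 64.5% ± 8.79 (SD, n = 4) of this gene's exon counts in controls and 58.0% ± 2.94 (SD, n = 4) in KO mice, with a highest share of 76.6% in control mouse 8. For Eef1a1 these shares were 90.6% and 90.0%.

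Eef2, the translocase, did not pass the test in RNA or footprints. Its RNA was at 1385, 1324, 1473 and 1624 CPM in control mice 1, 3, 6 and 8 and at 1488, 1455, 1507 and 1501 CPM in KO mice 2, 4, 5 and 7. The controls spread around a narrow KO range, with an SD of 130.2 against 23.4 CPM. The log2 fold change was 0.04 (95% interval -0.10 to 0.17, edgeR adjusted p = 0.786). Among mice 1 to 4 it was 0.13 and called (adjusted p = 0.00318), and among mice 5 to 8 it was -0.04. The limit given above for the fit of mice 1 to 4 holds here too. Eef2 footprints were at 979, 984 and 979 CPM in control mice 1, 3 and 9 and at 999, 1035 and 975 CPM in KO mice 2, 4 and 10. The 95% interval of their log2 fold change, 0.03, ran from -0.02 to 0.08 (edgeR adjusted p = 0.372). With unscaled library sizes it was 0.09 and called (adjusted p = 0.00175).

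Eef2k, the kinase, was at 40.0, 35.1, 38.5 and 32.4 CPM of RNA in control mice 1, 3, 6 and 8 and at 37.9, 38.6, 35.1 and 38.7 CPM in KO mice 2, 4, 5 and 7. The KO values lay inside the control range, and the log2 fold change of 0.04 had a 95% interval of -0.13 to 0.22 (edgeR adjusted p = 0.788). In the exon columns, which hold more of its counts, the controls at 32.2 to 35.2 CPM and the KO mice at 36.1 to 37.8 CPM did not overlap. The difference was not called there either (adjusted p = 0.184). Its footprints, at 34.3, 31.6 and 32.1 CPM in controls and 33.0, 28.7 and 34.0 CPM in KO mice, had a log2 fold change of -0.03 with a 95% interval of -0.23 to 0.18. The ratio of Eef2k to Eef2 counts differed by 0.0061 in RNA on the log2 scale (exact two-sided permutation test, p = 0.943) and by -0.07 in footprints (exact two-sided permutation test, p = 0.8). These counts do not measure phosphorylation of eEF2.

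**Figure D4:**
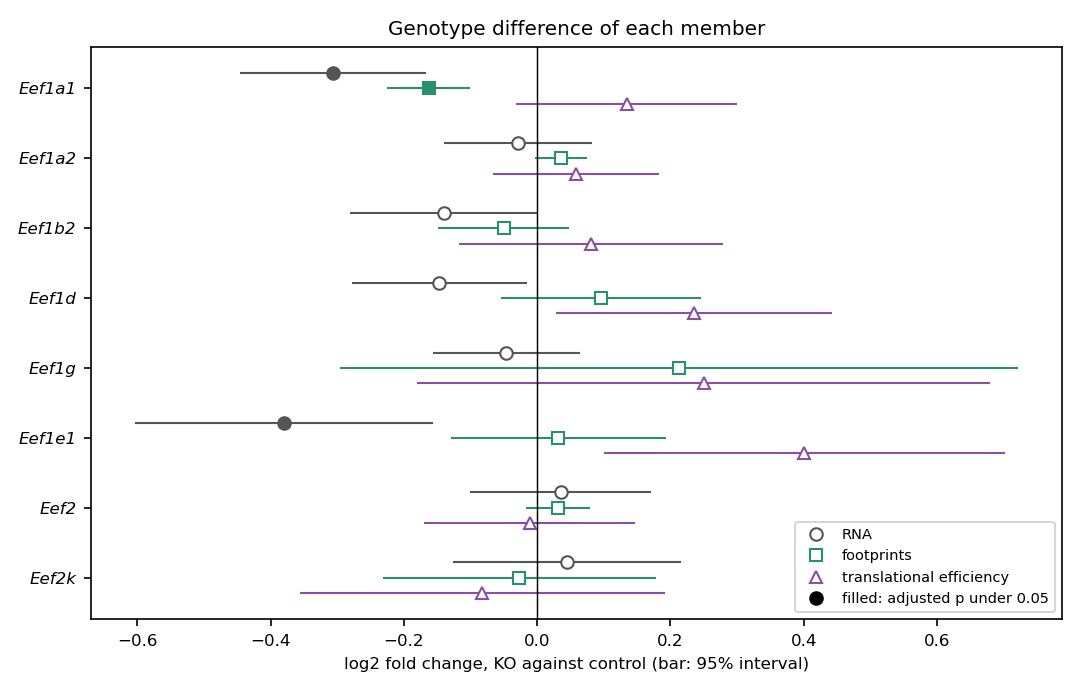
Log2 fold change of each member, KO against control, in RNA (circles), footprints (squares) and translational efficiency (triangles), with 95% intervals as bars and filled symbols for an adjusted p under 0.05. The filled symbols are Eef1a1 in RNA and footprints and Eef1e1 in RNA, all below 0.

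Translational efficiency, the footprint level relative to the RNA level, was compared between genotypes in one model over all libraries. No member was called by edgeR or by DESeq2, while 7.81% of 12145 genes were, 4.41% lower and 3.40% higher in KO mice. At an unadjusted p under 0.05 there were 2 of the 8 members, about the share in all genes (2805 of 12145). Eef1e1 had a log2 difference of 0.40 (95% interval 0.10 to 0.70, edgeR adjusted p = 0.0920) and Eef1d one of 0.24 (95% interval 0.03 to 0.44, adjusted p = 0.155). Eef1a1, whose RNA and footprints were both lower, had a difference of 0.13 (95% interval -0.03 to 0.30, adjusted p = 0.335). Of the 8 members 6 had positive values, with a median of 0.11 against -0.01 for all genes.

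The efficiency difference of Eef1e1 was called with unscaled library sizes (0.47, edgeR adjusted p = 0.0468), without KO mouse 5 (0.46, 0.0441) and by limma voom with library weights (0.38, 0.0244), which also called Eef1d (0.26, 0.0493). Mice 1 to 4 gave both kinds of library. A fit of these mice with mouse number as a replicate block called 1868 genes, against 949 over all libraries, and the same mice without the block gave 1806, an alternative chosen after seeing the data. Neither fit called any of the 8. In both, the difference of Eef1e1 was 0.25, and with the exon columns for RNA it was 0.24, against 0.40 over all libraries. It was not called with the exon columns either.

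In footprints per RNA, Eef1g and Eef1a1 lay low and Eef1a2 high among all genes, in both genotypes. CPM levels depend on gene length and are not compared between genes. In this ratio length cancels only if both kinds of library were counted over the same region, which is not given in the sources used here, so the order below holds under that condition. In controls the log2 ratio of mean footprint to mean RNA CPM was -5.29 for Eef1g, -2.35 for Eef1a1, -0.80 for Eef1d, -0.57 for Eef2, -0.44 for Eef1b2, -0.16 for Eef2k, 0.70 for Eef1e1 and 1.23 for Eef1a2. The median of 12145 genes was -0.13. Eef1g thus ranked 13 from the lowest, Eef1a1 was at percentile 2.46, and Eef1a2 was at percentile 95.9.

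**Figure D5:**
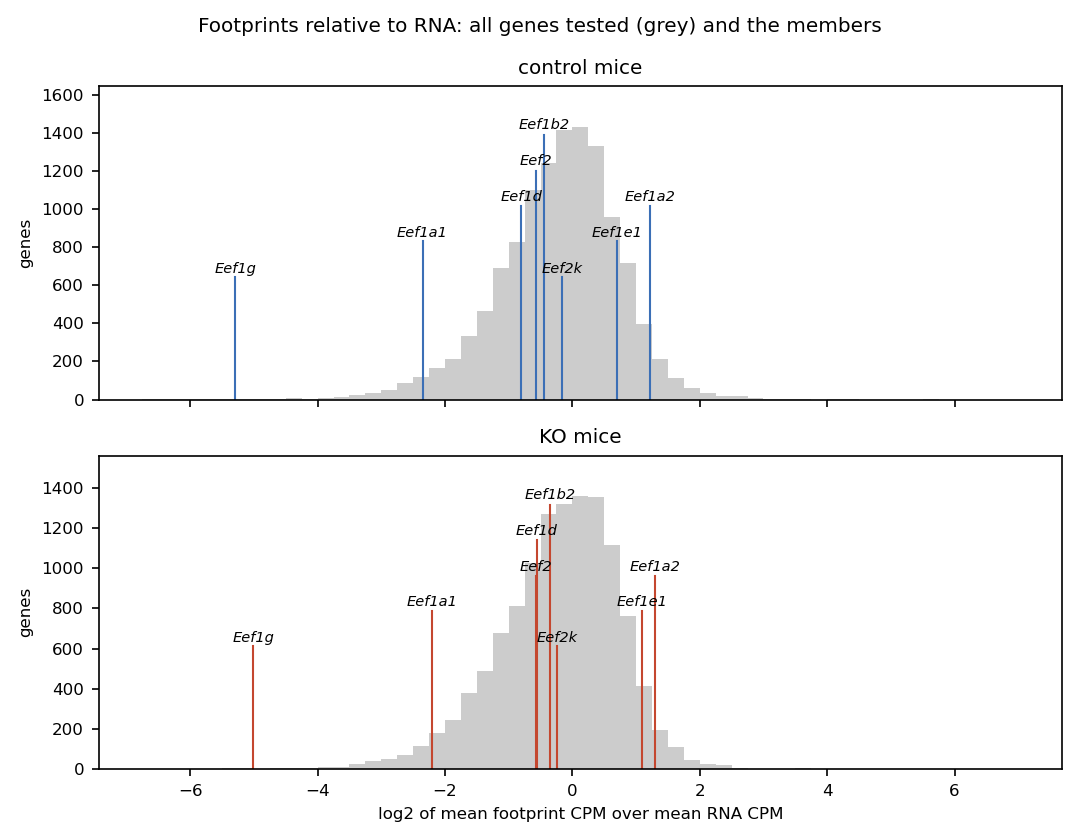
Log2 of mean footprint CPM over mean RNA CPM for all 12145 genes tested (grey histogram, number of genes per bin) with the 8 members as lines, for control mice (top) and KO mice (bottom); line heights only separate the names. Eef1g and Eef1a1 lie in the lower tail and Eef1a2 in the upper tail in both genotypes.

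The order was much the same in KO mice, at -5.01 for Eef1g, -2.21 for Eef1a1, 1.10 for Eef1e1 and 1.29 for Eef1a2. The paralogs Eef1a1 and Eef1a2 were apart in each of the 4 mice with both kinds of library. Eef1a1 was at -2.31, -2.26, -2.24 and -2.12 in mice 1, 3, 2 and 4, and Eef1a2 at 1.18, 1.30, 1.27 and 1.37. Eef1e1, at 0.92 to 1.23, was below Eef1a2 in each of them, and Eef1g, at -5.41 to -4.59, was the lowest member in each. The order from Eef1d through Eef2 and Eef1b2 to Eef2k varied between mice, with Eef2 above Eef1b2 in control mice 1 and 3 and below it in KO mice 2 and 4. The part that reads shared with other copies of a sequence have in the low ratios of Eef1g and Eef1a1 was not tested.

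Genes that act on the elongation factors were read from lists of known genes, against the shares of all genes given above. Of 18 genes for elongation factor modification (hypusination of eIF5A, diphthamide synthesis on eEF2, methylation of eEF1A and eEF2, and selenocysteine decoding), 1 was lower in RNA and 2 were higher in footprints. The RNA call was Ece2 (-0.36 ± 0.068 on the log2 scale, SE, edgeR adjusted p = 0.00667). It stands in the list because its symbol has covered the locus of the eEF1A methyltransferase Eef1akmt4, but it is best known as an endothelin-converting enzyme. The footprint calls were Dph6, listed under its older symbol Atpbd4, a diphthamide synthesis enzyme (0.49 ± 0.11, SE, adjusted p = 0.000286), and Eif5a2 (0.33 ± 0.11, SE, adjusted p = 0.0213). None was called in efficiency, where 13 had higher and 5 lower values and the median was 0.16, against -0.01 for all genes. There 1 was called higher with unscaled library sizes, without KO mouse 5 or control mouse 8, and with exon columns for RNA. The same count was found in mice 1 to 4, with and without the mouse as a block, and by limma voom. The RNA call was lost with KO mice 2, 4 and 7 summed and with mice 5 to 8 only. Footprint calls came to 1 higher by DESeq2, in one fit over 14 libraries and without control mouse 1, and to 1 higher and 1 lower without KO mouse 2.

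Of 15 regulators of eEF2 kinase tested, 2 calmodulin genes were lower in RNA and none was higher. They were Calm2 (-0.34 ± 0.051, SE, edgeR adjusted p = 0.00197) and Calm3 (-0.21 ± 0.049, SE, adjusted p = 0.0212). In footprints 3 were higher and 3 lower, among them Calm2 (-0.33 ± 0.022, SE, adjusted p = 2.54e-23), Rps6ka3, an RSK kinase that inhibits eEF2K (0.30 ± 0.091, SE, adjusted p = 0.0075), and Mtor (-0.25 ± 0.042, SE, adjusted p = 1.67e-06). None was called in efficiency, while 1 was higher there with unscaled library sizes and 1 lower by limma voom. The 2 RNA calls came to 1 without control mouse 1 or 6, without KO mouse 2, 4 or 7 and in the exon columns. They came to 0 with KO mice 2, 4 and 7 summed or with mice 5 to 8 only. The 3 higher in footprints came to 1 by DESeq2, to 0 in one fit over 14 libraries, to 2 without control mouse 9 or KO mouse 2 and to 1 without control mouse 3 or KO mouse 10, while 3 were called lower in each of these. Mitochondrial elongation factors had 1 call in 5 genes, Tsfm, the exchange factor of mitochondrial EF-Tu, which was lower in RNA (-0.43 ± 0.093, SE, adjusted p = 0.0137). That call was lost without KO mouse 2 or 4, with KO mice 2, 4 and 7 summed and with mice 5 to 8 only. In efficiency 1 of the 5 was called higher with unscaled library sizes, without control mouse 8 and by limma voom. So was 1 in mice 1 to 4, with and without the mouse as a block.

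Of 11 genes of the multi-tRNA-synthetase complex that AIMP3 joins, with Vars, whose product binds eEF1B, none was called in RNA or efficiency and 4 were lower in footprints. The largest were Eprs (-0.36 ± 0.042, SE, edgeR adjusted p = 9.69e-12), Vars (-0.25 ± 0.076, SE, adjusted p = 0.00802) and Mars (-0.21 ± 0.066, SE, adjusted p = 0.0124), which charge glutamate and proline, valine and methionine tRNAs. The 4 came to 1 by DESeq2, and to 2 in one fit over 14 libraries or with unscaled library sizes. In RNA, 5 were lower among mice 1 to 4 alone, a fit that called 3273 of 13591 genes. In efficiency, 2 were called higher among these mice with and without the mouse as a block, where 1868 and 1806 of 12185 genes were called, and limma voom called 1 lower.

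Other TOP mRNAs and ribosomal protein mRNAs were placed beside the elongation factors because several factors share their class. Of 14 other TOP mRNAs, 3 were lower in RNA, led by Naca, a subunit of the nascent chain complex (-0.38 ± 0.062, SE, edgeR adjusted p = 0.00304). In efficiency 3 of 12 were higher, among them Btf3, its partner subunit (0.88 ± 0.11, SE, adjusted p = 5.28e-05), and the list's median was -0.15. In footprints 3 of 12 were higher and 3 lower, among them Btf3 (0.63 ± 0.11, SE, adjusted p = 1.68e-06) and Hnrnpa1 (-0.63 ± 0.16, SE, adjusted p = 0.00125). The 3 RNA calls came to 2 without control mouse 1 or KO mouse 2, to 1 without KO mouse 4 or 7, and to 0 with KO mice 2, 4 and 7 summed or with mice 5 to 8 only. Those in efficiency came to 2 without KO mouse 4 and to 5, with 1 lower, without KO mouse 5.

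Of 75 ribosomal protein genes tested in RNA, 35 were lower and none was higher, with a median log2 fold change of -0.23. Rps28 (-0.57 ± 0.065, SE, edgeR adjusted p = 0.000338) and Rpl35 (-0.55 ± 0.067, SE, adjusted p = 0.000376) had the largest falls. The 35 came to 14, 15 and 17 without KO mouse 2, 4 or 7, to 17 without control mouse 6, to 3 with those KO mice summed, to 2 with control mice 1 and 3 summed as well, and to 7 with mice 5 to 8 only. The median stayed between -0.26 and -0.18 in all of the RNA alternatives run. Only 38 passed the filter on low counts in footprints, and of these 15 were higher and 1 lower, with a median of 0.17. The RNA median above is over 75 genes and was not taken over these 38. Without that filter the median was -0.22 over 75 genes in RNA and 0.16 over 74 in footprints. In efficiency 19 of 38 were higher and none lower, with a median of 0.37, led by Rpl23 (1.69 ± 0.18, SE, adjusted p = 5.02e-06). The 15 in footprints came to 10 by DESeq2, and the 19 in efficiency to 12 without control mouse 9 and 13 without KO mouse 2. The RNA of Eef1a1 and Eef1e1 had the sign of that list's RNA median. In footprints Eef1a1 had the opposite sign to the list's median and Eef1e1 (0.03) the same sign. In efficiency Eef1a1 (0.13) and Eef1e1 (0.40) had the sign of the list's median and 2 of the 8 members had the opposite sign. No member was called there.

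Several markers of other cell types and of neuronal activity also differed with genotype. RNA sums overlapped for many lists, the immediate early genes included. All 12 immediate early genes had higher RNA values in KO mice and 11 were called. Their summed RNA was 305, 306, 301 and 609 CPM in control mice 1, 3, 6 and 8 and 1205, 1193, 537 and 1161 CPM in KO mice 2, 4, 5 and 7, so that control mouse 8 and KO mouse 5 stood apart from their groups. Their summed footprints were 732 to 771 and 2570.1 to 2624 CPM. In footprints, sums that did not overlap included inhibitory neuron markers, at 1827 to 1886 CPM in controls and 1975 to 2010.0 CPM in KO mice, and microglial markers, at 562 to 579 and 587 to 594 CPM. Within both lists single markers went both ways. Of 9 inhibitory markers 6 had higher and 3 lower footprint values, with 4 called higher and 1 lower. Of 8 microglial markers 6 had higher and 2 lower values, with Ctss called higher (0.45 ± 0.057, SE, edgeR adjusted p = 1.89e-10) and C1qb lower (-0.48 ± 0.075, SE, adjusted p = 1.48e-07). Choroid plexus footprints were lower in KO mice, at 12.5 to 15.8 and 6.66 to 11.7 CPM, with Ttr called (-1.74 ± 0.41, SE, edgeR adjusted p = 0.000518). Footprints of the excitatory neuron markers summed to 5766 to 5910.5 CPM in controls and 5543 to 5824 CPM in KO mice. Those of the oligodendrocyte markers summed to 8828 to 8986 CPM in controls and 8678 to 8710.0 CPM in KO mice, and the 8 astrocyte markers to 6383 to 6464 and 6339 to 6372 CPM. Of the 9 oligodendrocyte markers 5 had higher and 4 lower footprint values, 3 were called each way, and the median log2 fold change was 0.03. Astrocyte RNA overlapped, at 3734 to 4156 and 3886 to 4694 CPM, although Gfap (-0.47 ± 0.051, SE, edgeR adjusted p = 0.000321) and Aqp4 (-0.46 ± 0.065, SE, adjusted p = 0.00126) were called lower. Of the 8 astrocyte markers 3 had higher and 5 lower RNA values, with a median log2 fold change of -0.08. Inhibitory neuron RNA overlapped, at 882 to 942 and 909 to 1040.2 CPM, as did microglial RNA, at 427 to 492 and 440.0 to 455 CPM, and endothelial RNA, at 126 to 232 and 142 to 229.6 CPM. Choroid plexus RNA ranged from 9.98 to 282 CPM in controls and from 6.89 to 120.1 CPM in KO mice, and of 3 red blood cell markers 2 were at 0 in all libraries. The part of these markers in the members' values was not tested.

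For each member, the genes with the most similar pattern were taken from Pearson's r of log2 CPM over the 14 libraries, with each assay centred on its own mean. The points share mice 1 to 4 between assays and the genotype difference itself, and the highest of 12122 values is high by selection. Eef1a1 was closest to the granin-family gene Scg2 (r = 0.953) and to Scg5 (0.95), and Eef2 to Cnrip1 (0.976) and Mras (0.959). Eef1b2 was closest to Tbcd (0.955) and Slc7a3 (0.906), Eef1d to Itpa (0.922) and Psma6 (0.902), and Eef1e1 to Dbi (0.921) and Rpn1 (0.918). Eef1g was closest to Ccdc90a (0.909) and Parp11 (0.907), Eef1a2 to Hnrnpul1 (0.876) and Pex19 (0.831), and Eef2k to Tubgcp6 (0.868) and Tie1 (0.852). Among the members, r was 0.82 between Eef1a1 and Eef1e1 and -0.81 between Eef1b2 and Eef2.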

How the data were processed

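The authors deposited whole-number counts per gene, not normalized, for 8 RNA and 6 footprint libraries, with a second exon column for each RNA library. RNA was read from the columns without that suffix, which have values for the genes that the footprint columns cover; 2849 genes have none in either. The submitters' processing notes name Bowtie2, STAR 2.5, featureCounts, Subread 1.4.6, mm9 and mm10, with no role or order, and the region and strand counted are not given in the sources used here. No row lacked a gene name. A total of 27 rows are named as dates; they stayed in the tests.

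Genotype and mouse number came from the labels, which name separate mice. Genes passed filterByExpr (minimum count 10), were scaled by TMM and tested with edgeR 4.0.16 (R 4.3.3) quasi-likelihood tests, two-sided, with Benjamini-Hochberg adjustment over all genes tested and a threshold of 0.05. Translational efficiency was the interaction of genotype and assay over all 14 libraries. Standard errors and 95% intervals of log2 fold changes come from the F statistic. Log2 CPM for likeness used a prior count of 2. Ratios were tested by exact permutation (scipy 1.17.1). Alternatives used DESeq2 1.42.0 and limma 3.58.1. The fits were tested on simulated data.

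The members and gene lists were chosen with earlier results of these data known. Named genes were the 8 members, Fmr1 and Rpl22, the 3 called members with the largest change at most per list and comparison, and the 2 genes most like each member. Mouse numbers in the labels pair RNA and footprints of mice 1 to 4, which were taken as the same animals. The RNA difference and the footprint difference between mice of one genotype had r = 0.011 for control mice 1 and 3 and r = 8.85e-05 for KO mice 2 and 4, over 12145 genes. Footprints of these pairs differed little beyond sampling (chi-square per degree of freedom 1.20 and 1.28), so r cannot decide whether the pairing holds.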

Additional observations from a re-analysis of the deposited data

How the results depend on the processing

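The number of genes called in RNA, 1001, ranged from 356 to 1763 when 1 library was left out, and members called, 2, from 0 to 2. Without KO mouse 2, 4 or 7 the genes called were 361, 356 and 376, and without control mouse 8 they were 1763. With KO mice 2, 4 and 7 summed there were 79 genes and 0 members, with those of control mice 1 and 3 as well 36 and 0, with mice 5 to 8 only 88 and 0, with mice 1 to 4 only 3273 and 5, and in the exon columns 1 member. In footprints, 3102 genes became 1821 by DESeq2 and 1684 in one fit over 14 libraries (0 members), and unscaled library sizes called 3 members. In efficiency, 949 genes became 419 to 1289 with 1 library left out (0 to 1 members), 543 and 579 with the alike libraries summed, 1868 in mice 1 to 4 with mouse as a replicate block, 1806 in the same mice without it (0 members in both; the second was chosen after seeing the data) and 1903 by voom (2 members); unscaled sizes called 1 member. Among mice 1 to 4, the replicate block changed no member's call. Unscaled sizes also moved the share of called genes that were higher in KO mice from 46.7% to 66.3% in footprints and from 43.5% to 68.2% in efficiency.

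Values that changed sign were all uncalled. In RNA these were Eef1g with mice 1 to 4 (0.0017), Eef2 with mice 5 to 8 (-0.042), and, with 1 library left out, Eef2 (-0.0061 to 0.097) and Eef2k (-0.0065 to 0.095). In footprints they were Eef1b2 (0.0093) and Eef2k (0.032) with unscaled sizes and, with 1 library left out, Eef1g (-0.034 to 0.38), Eef1e1 (-0.038 to 0.071) and Eef2k (-0.079 to 0.044). In efficiency they were Eef2 with unscaled sizes (0.056), exon columns (0.036) or the alike libraries of both genotypes summed (0.011) and, with 1 library left out, Eef2 (-0.069 to 0.035) and Eef2k (-0.13 to 0.0037). The log2 difference of the Eef2k to Eef2 ratio ranged from -0.11 to 0.073 in RNA and from -0.14 to 0.029 in footprints with 1 library left out, and was -0.032 in RNA with KO mice 2, 4 and 7 summed. The cause was not tested for any of these. Footprint depth limits Eef1g, with 19 to 32 counts per library.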
